A study of Mus musculus with 24 samples.

Results

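The 10 genes described here are the circadian clock genes of mouse liver that formed the requested set: Arntl, Clock, Npas2, Per1, Per2, Per3, Nr1d1, Nr1d2, Dbp and Tef. Every probe set that the platform annotation ties to one of these symbols alone was taken, which gave 26 probe sets of the 45101 on the array and 10 of the 18193 genes named by such probe sets. Of these, 22 passed the filter on dim signals and were tested, at least 1 for each of the 10 genes, among 22794 tested probe sets of the whole table. The members were named by symbol and not by a measured value.

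Liver RNA came from male BALB/c mice, obtained at 6 weeks of age, that ate a purified AIN-93G diet for 14 days. Phloridzin, a plant glucoside known as an inhibitor of sodium-coupled glucose carriers, made up 0% (control), 0.1%, 0.5% or 1.0% of that diet. The labels give 6 mice for each diet, 3 to a cage, with the dark phase set between 8 and 20 h on the clock. The hour at which the mice were killed is not given in the sources used here, and the labels name no samples taken at several hours. Expression was read on 24 Affymetrix arrays, 6 for each diet.

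The clock of liver cells is a feedback loop of transcription. BMAL1, the product of Arntl, pairs with CLOCK or its relative NPAS2 and binds E-box elements to switch on the Per genes, the Rev-erb genes Nr1d1 and Nr1d2, and Dbp and Tef. PER proteins act with cryptochromes to block the BMAL1 pair, REV-ERB proteins repress Arntl and Npas2 through their own response elements, and DBP and TEF carry the rhythm to output genes through D-box elements. Arntl and Npas2 transcripts therefore peak in mouse liver at a different time of day from those of the Rev-erb, Per, Dbp and Tef genes, which are called the opposite arm below.

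The elements through which the loop is wired were looked for in the members' own promoters, read from RefSeq on GRCm38.p6 as 250 bases before to 50 after each annotated start. Windows were held for 9 of the 10 genes, 14 windows in all; Per2 had no entry. Each window was searched on both strands for 5 motifs: CACGTG (E-box), CACGTT (a variant E-box), TTANGTAA (D-box), and TAGGTCA and TGGGTCA (Rev-erb and ROR element). A match occurred in 6 windows of 5 genes. TGGGTCA matched in none of them. The windows below are shown because each carries a match to the E-box, the D-box or TAGGTCA, in capitals, written 5′ to 3′ on the strand of the gene.
Arntl, chr7:113207261-113207560, plus strand, Rev-erb and ROR element: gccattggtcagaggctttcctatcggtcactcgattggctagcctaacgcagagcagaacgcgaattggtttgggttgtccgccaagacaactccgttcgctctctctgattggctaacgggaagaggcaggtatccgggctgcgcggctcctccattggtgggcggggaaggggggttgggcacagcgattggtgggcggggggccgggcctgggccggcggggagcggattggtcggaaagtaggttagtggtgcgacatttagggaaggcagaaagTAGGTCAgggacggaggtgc
Per1, chr11:69098699-69098998, plus strand, E-box: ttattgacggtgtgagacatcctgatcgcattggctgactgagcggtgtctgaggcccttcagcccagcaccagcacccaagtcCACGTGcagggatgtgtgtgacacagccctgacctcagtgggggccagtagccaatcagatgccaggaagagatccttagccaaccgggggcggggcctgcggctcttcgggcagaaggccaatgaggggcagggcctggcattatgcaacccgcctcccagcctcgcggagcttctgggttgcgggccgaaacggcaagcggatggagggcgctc
Per3, chr4:151044616-151044915, minus strand, 2 D-boxes: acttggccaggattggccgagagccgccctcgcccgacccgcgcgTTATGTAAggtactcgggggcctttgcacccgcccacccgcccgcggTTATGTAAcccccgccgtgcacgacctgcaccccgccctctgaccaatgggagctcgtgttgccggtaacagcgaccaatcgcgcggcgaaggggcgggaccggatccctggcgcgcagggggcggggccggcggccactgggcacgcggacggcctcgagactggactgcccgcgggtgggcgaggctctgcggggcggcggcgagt
Tef, chr15:81811164-81811463, plus strand, E-box: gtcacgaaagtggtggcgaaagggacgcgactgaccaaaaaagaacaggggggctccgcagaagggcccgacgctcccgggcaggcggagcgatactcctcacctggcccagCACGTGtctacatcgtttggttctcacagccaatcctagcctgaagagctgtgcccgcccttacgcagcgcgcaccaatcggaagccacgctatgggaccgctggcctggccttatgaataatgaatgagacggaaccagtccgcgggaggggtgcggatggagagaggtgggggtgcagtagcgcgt
The element in the Arntl window began 30 bases after the start, the E-box of Per1 at position -166, the D-boxes of Per3 at -205 and -158, and the E-box of this Tef window at -138. A second Tef window, chr15:81802423-81802722, held CACGTG at -127, and the Nr1d1 window, chr11:98775328-98775627, held CACGTT on the opposite strand at -28. Among all 32851 promoter windows of the same length, CACGTG was found in 7.15%, CACGTT in 4.68%, TTANGTAA in 2.32%, TAGGTCA in 2.61% and TGGGTCA in 3.98%. The matches describe letters in these windows, and no file of this study measured binding to them.

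The arrays did not carry 24 separate RNA samples, and every value below depends on how they were joined. Across 1461 well-measured genes, with the clock genes left out, the SD of the log2 difference was 0.0436 to 0.0577 in 13 pairs of arrays and 0.108 to 0.137 in 8 more, against 0.164 to 0.527 in the other 255 pairs. Arrays within the first 2 ranges were averaged as 1 RNA. This left 4 control RNA samples (replicates 1 with 3, 2 with 4, 5, and 6), 3 at 0.1% (replicates 2, 4 and 5), 2 at 0.5% (replicates 1, 2, 3 and 6 together, and 4 with 5) and 2 at 1.0% (replicates 2, 3, 5 and 6 together, and 4). Replicates 1, 3 and 6 at 0.1% and replicate 1 at 1.0% carried 1 RNA under the labels of 2 diets. This RNA entered no comparison except where its use is stated. The tests thus rested on 11 RNA samples from 20 arrays, and their number limits the precision of each value. Deposited array medians ran from 9.49 to 18.0, so all levels are log2 of quantile-normalized signals, on which 3.00 is a floor set at a signal of 8. Levels of different probe sets were not set against each other. Hepatocyte markers were present throughout: the mean log2 signal of 6 of them (Alb, Ttr, Apoa1, Cps1, Fgb and Tat) lay between 12.97 and 13.12 in the RNA samples of the fit.

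None of the 10 clock genes passed the test in any diet. With limma and Benjamini-Hochberg adjustment over all tested probe sets, 0 of 22 members had an adjusted p under 0.05 in any of the comparisons described below. The wide differences of clock transcripts lay between RNA samples of 1 diet, above all at 0.5%, where Dbp, Tef, Nr1d2, Per2 and Per3 were low in 1 of the 2 RNA samples and near or above the control levels in the other. Nr1d1 was low in both 0.5% samples and Arntl high in both. In whole liver, fewer cells expressing a gene and less RNA per cell cannot be told apart.

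**Figure D1:**
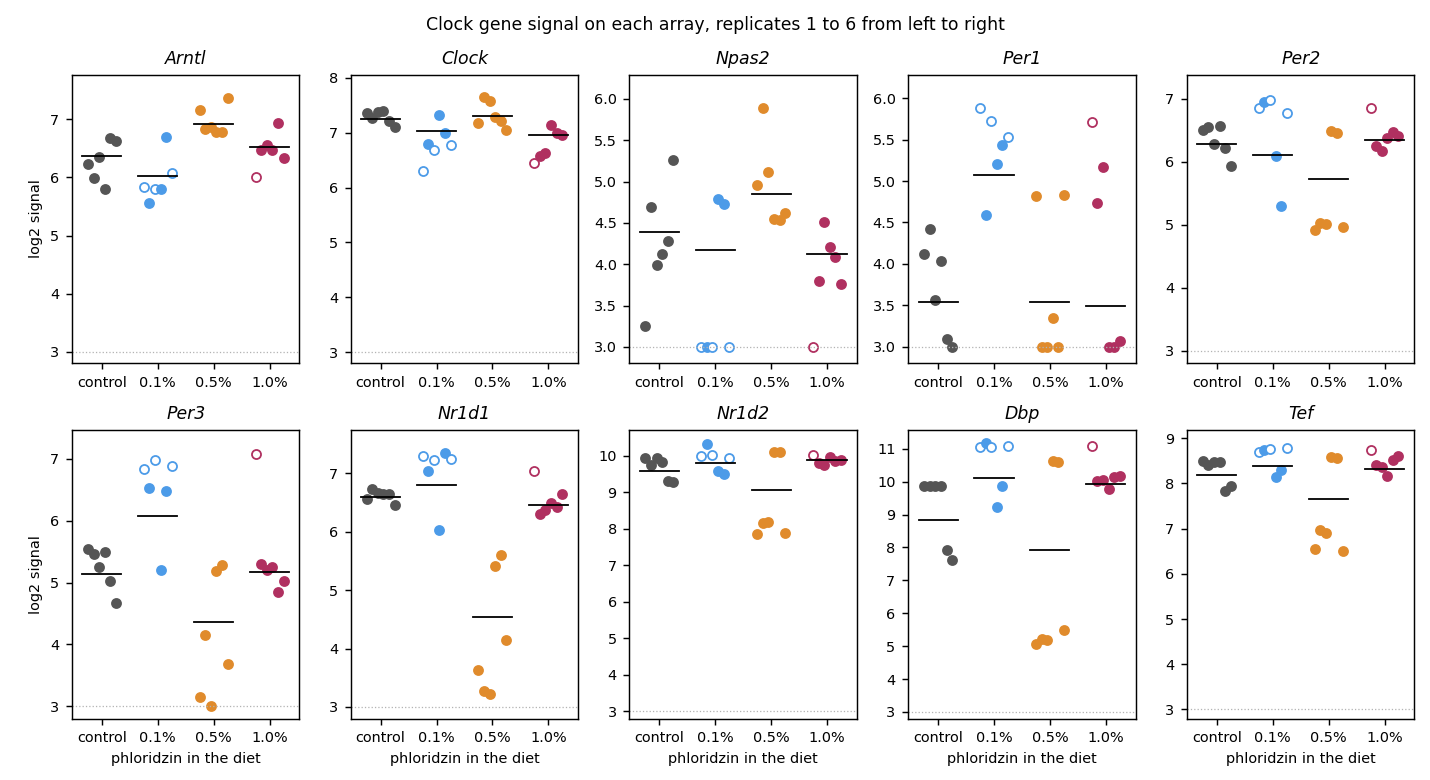
Log2 signal of the brightest probe set of each clock gene on every array (y axis, log2 units) by percent of phloridzin in the diet (x axis), with replicates 1 to 6 from left to right. Open circles are arrays whose RNA carried labels of 2 diets, black lines are means of the RNA samples and dotted lines mark the floor of 3; replicates 1, 2, 3 and 6 at 0.5% lie far below replicates 4 and 5 for Nr1d2, Dbp and Tef.

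Array values are given for the brightest probe set of each gene, in the order of replicates 1 to 6. These were 1425099_a_at for Arntl, 1418659_at for Clock, 1421037_at for Npas2, 1449851_at for Per1, 1417602_at for Per2, 1442243_at for Per3, 1426464_at for Nr1d1, 1416958_at for Nr1d2, 1438211_s_at for Dbp and 1424175_at for Tef. Arntl encodes BMAL1, whose loss abolishes the rhythm in mice. Its log2 signal was 6.22, 5.99, 6.36, 5.81, 6.69 and 6.62 on control arrays and 5.83, 5.56, 5.81, 5.79, 6.70 and 6.07 on 0.1% arrays. It was 7.16, 6.84, 6.87, 6.78, 6.78 and 7.37 on 0.5% arrays and 6.00, 6.47, 6.55, 6.48, 6.94 and 6.34 on 1.0% arrays. All 6 arrays at 0.5%, which carried 2 RNA samples, lay above all 6 control arrays, which carried 4. Averaged over RNA samples, Arntl stood at 6.37 ± 0.36 in control liver (SD, n = 4), 6.02 ± 0.60 at 0.1% (n = 3), 6.92 ± 0.20 at 0.5% (n = 2) and 6.53 ± 0.07 at 1.0% (n = 2). The change at 0.5% was 0.55 ± 0.29 (log2, SE), with an adjusted p of 0.94 in limma. The 0.5% and control RNA samples did not overlap, the lower 0.5% sample being at 6.78 and the highest control sample at 6.69, a gap smaller than the SD of 0.22 among arrays joined as 1 RNA.

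Clock encodes the usual partner of BMAL1. Its arrays read 7.35, 7.27, 7.37, 7.40, 7.22 and 7.10 on the control diet and 6.30, 6.78, 6.68, 7.31, 6.998 and 6.77 at 0.1%. They read 7.17, 7.66, 7.57, 7.28, 7.21 and 7.04 at 0.5% and 6.44, 6.57, 6.62, 7.14, 7.001 and 6.96 at 1.0%. The groups overlapped at every dose, and the RNA samples spanned 0.58 log2 units in all by this probe set. They spanned 0.87 by 1435775_at, 0.67 by 1418660_at and 2.13 by 1439314_at, the other tested Clock probe sets. Npas2, which can take the place of CLOCK, was dim. Its arrays read 3.25, 4.69, 3.99, 4.12, 4.28 and 5.27 on the control diet and 3.00, 3.00, 3.00, 4.78, 4.73 and 3.00 at 0.1%. They read 4.96, 5.90, 5.12, 4.55, 4.54 and 4.62 at 0.5% and 3.00, 3.79, 4.51, 4.21, 4.09 and 3.76 at 1.0%. At 0.1% the arrays lay either at the floor or at 4.73 and above, so its change of -0.22 ± 0.43 (log2, SE) describes no common level.

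Among the repressors, Per1 responds to acute signals as well as to the clock. Its arrays read 4.12, 4.42, 3.57, 4.03, 3.09 and 3.00 on the control diet and 5.89, 4.60, 5.72, 5.20, 5.43 and 5.53 at 0.1%. They read 4.82, 3.00, 3.00, 3.34, 3.00 and 4.84 at 0.5% and 5.71, 4.73, 5.16, 3.00, 3.00 and 3.07 at 1.0%. All 3 RNA samples at 0.1% lay above the 4 control RNA samples. The RNA of 2 labels also lay above them, on its 3 arrays labelled 0.1% and on the array labelled 1.0% (5.71), and its diet is not known. The mean was 5.08 ± 0.43 at 0.1% (SD, n = 3) and 3.54 ± 0.59 on the control diet (n = 4), a change of 1.54 ± 0.37 (log2, SE) with an adjusted p of 0.337 in limma. Per1 also differed between arrays that were joined as 1 RNA: replicates 1 and 6 at 0.5% stood at 4.82 and 4.84 while replicates 2 and 3 were at 3.00, and at 1.0% replicates 2 and 3 stood at 4.73 and 5.16 while replicates 5 and 6 were at 3.00 and 3.07. The widest such gap was 2.16 log2 units, and its origin was not tested.

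Per2, a core repressor that binds cryptochromes, split the 0.5% arrays. It read 6.51, 6.55, 6.28, 6.57, 6.21 and 5.94 on control arrays and 6.85, 6.95, 6.98, 6.09, 5.29 and 6.77 at 0.1%. It read 4.91, 5.03, 5.01, 6.48, 6.46 and 4.96 at 0.5% and 6.85, 6.25, 6.17, 6.38, 6.47 and 6.41 at 1.0%. The RNA of 0.5% replicates 1, 2, 3 and 6 stood at 4.98, below all control RNA samples (5.94 to 6.56), while that of replicates 4 and 5 stood at 6.47, inside their range. The change at 0.5% was -0.55 ± 0.41 (log2, SE), and 0.19 ± 0.44 with the lower RNA left out.

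Per3, the Per gene whose loss in mice spares most of the rhythm, gave the same split. It read 5.54, 5.46, 5.25, 5.50, 5.02 and 4.66 on control arrays and 6.84, 6.53, 6.98, 5.20, 6.48 and 6.88 at 0.1%. It read 3.14, 4.15, 3.00, 5.19, 5.29 and 3.69 at 0.5% and 7.07, 5.30, 5.20, 5.25, 4.84 and 5.03 at 1.0%. At 0.1% the RNA of replicates 2 and 5 (6.53 and 6.48) lay above all control RNA samples (4.66 to 5.48) and that of replicate 4 (5.20) within them. The change at 0.1% was 0.93 ± 0.39 (log2, SE) with an adjusted p of 0.487 in limma, and that at 0.5% was -0.77 ± 0.45, which became 0.10 ± 0.46 without the RNA of 0.5% replicates 1, 2, 3 and 6. A further Per3 probe set, 1441445_at, tracked the brightest one (r = 0.90 over 11 RNA samples) and changed by -1.06 ± 0.49 at 0.5%, with an adjusted p of 0.929 in limma.

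Nr1d1, the Rev-erb alpha gene, was lower on every 0.5% array than on any control array. Its arrays read 6.56, 6.74, 6.67, 6.64, 6.65 and 6.46 on the control diet and 7.29, 7.04, 7.23, 6.02, 7.35 and 7.25 at 0.1%. They read 3.63, 3.27, 3.22, 5.42, 5.60 and 4.14 at 0.5% and 7.04, 6.30, 6.36, 6.49, 6.43 and 6.65 at 1.0%. Both 0.5% RNA samples (3.56 and 5.51) lay below the 4 control samples (6.46 to 6.69). Nr1d1 averaged 4.54 ± 1.38 at 0.5% (SD, n = 2) and 6.60 ± 0.10 on the control diet (n = 4). The change was -2.06 ± 0.42 (log2, SE), with an adjusted p of 0.398 in limma. Without the RNA of replicates 1, 2, 3 and 6 the change was -1.09 ± 0.37 (adjusted p = 0.759). Without the RNA of replicates 4 and 5 it was -3.04 ± 0.37 (adjusted p = 0.0084); this last value has 1 RNA at 0.5%, assumed to vary like the other diets. Over the 24 settings in which repeat arrays were averaged, the adjusted p lay between 0.0084 and 0.759.

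Nr1d2, the Rev-erb beta gene, was lower in the RNA of 0.5% replicates 1, 2, 3 and 6 alone. It read 9.93, 9.75, 9.95, 9.83, 9.31 and 9.29 on control arrays and 9.996, 10.32, 10.02, 9.60, 9.51 and 9.95 at 0.1%. It read 7.87, 8.16, 8.18, 10.09, 10.11 and 7.87 at 0.5% and 10.03, 9.80, 9.76, 9.96, 9.85 and 9.90 at 1.0%. The lower 0.5% RNA was at 8.02 and the other at 10.10, above the highest control RNA at 9.94. The change of -0.52 ± 0.40 at 0.5% became 0.52 ± 0.29 (log2, SE) with the lower RNA left out.

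Dbp, a D-box activator known for one of the largest daily swings in rodent liver, spanned the most of the 10 genes. It read 9.86, 9.86, 9.88, 9.86, 7.93 and 7.63 on control arrays and 11.07, 11.18, 11.05, 9.24, 9.88 and 11.08 at 0.1%. It read 5.06, 5.23, 5.20, 10.62, 10.61 and 5.49 at 0.5% and 11.08, 10.03, 10.05, 9.76, 10.13 and 10.18 at 1.0%. Control replicates 5 and 6 lay at 7.93 and 7.63, below the 9.86 to 9.88 of control replicates 1 to 4, so the control diet itself held a split in this gene. At 0.5% the RNA samples were at 5.24 and 10.62, one below and the other above the whole control range of 7.63 to 9.87. The mean changes were 1.28 ± 0.93 at 0.1%, -0.89 ± 1.06 at 0.5% and 1.11 ± 1.06 at 1.0% (log2, SE), with adjusted p of at least 0.678 in limma. The change at 0.5% was 1.79 ± 0.80 without the RNA of replicates 1, 2, 3 and 6 and -3.58 ± 0.80 without that of replicates 4 and 5 (adjusted p = 0.957 and 0.321). The second Dbp probe set, 1418174_at, gave the same order of RNA samples closely (r = 0.99, n = 11), with 3.81 to 4.21 on 0.5% arrays 1, 2, 3 and 6 and 8.56 and 8.57 on arrays 4 and 5.

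Tef, a D-box activator related to Dbp, moved within narrower limits. It read 8.50, 8.42, 8.47, 8.48, 7.84 and 7.93 on control arrays and 8.69, 8.73, 8.77, 8.15, 8.29 and 8.79 at 0.1%. It read 6.55, 6.97, 6.90, 8.58, 8.57 and 6.51 at 0.5% and 8.74, 8.41, 8.35, 8.16, 8.51 and 8.61 at 1.0%. As for Dbp, control replicates 5 and 6 were the lowest of the control diet. The 0.5% RNA samples were at 6.73 and 8.57, below and above the control range of 7.84 to 8.49. The change at 0.5% was -0.53 ± 0.36 (log2, SE), and 0.39 ± 0.28 without the RNA of replicates 1, 2, 3 and 6.

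**Figure D2:**
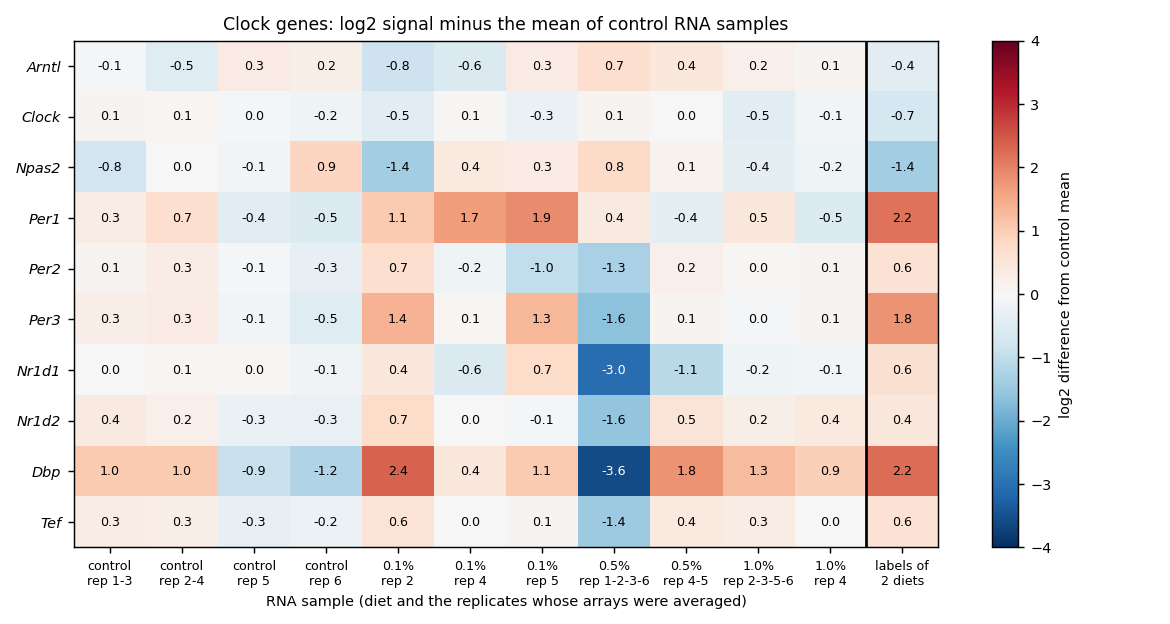
Difference of each RNA sample from the mean of the 4 control RNA samples (colour and printed value, log2 units) for the 10 clock genes (rows); columns are the 11 RNA samples of the fit and, right of the line, the RNA with labels of 2 diets. The RNA of 0.5% replicates 1, 2, 3 and 6 is low for Per2, Per3, Nr1d1, Nr1d2, Dbp and Tef, and Dbp differs from the mean in both directions among control samples.

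The comparison of each dose with control gave no call among the members. At 0.1%, 0 of 22 members had an adjusted p under 0.05, where 0.00439% of all tested probe sets did. At an unadjusted p under 0.05 the members counted 2 of 22 and all probe sets 9.42%. The brightest probe sets were higher than control in 6 genes and lower in 4, with a median change of 0.21 against -0.01 over all tested probe sets. Per1 was the only gene of the 10 whose 0.1% RNA samples all lay above the control samples. The share of all tested probe sets that did not overlap control is not given here for any dose, so overlap is only described.

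At 0.5%, 0 of 22 members passed the adjustment, as did 0% of all tested probe sets. At an unadjusted p under 0.05 there were 2 of 22 members, Nr1d1 and the second Per3 probe set, against 5.33% of all probe sets. The changes were positive in 4 genes and negative in 6, with a median of -0.52 against -0.01 over all probe sets. Of the 10 genes, Arntl lay wholly above and Nr1d1 wholly below the control RNA samples, and the other 8 overlapped them. With so few RNA samples and no share over all probe sets beside it, this count is a description.

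At 1.0%, 0 of 22 members passed the adjustment, where 0.00439% of all probe sets did, and 0 of 22 had an unadjusted p under 0.05, against 6.48%. All 10 genes overlapped control. The changes were positive in 6 genes and negative in 4, with a median of 0.05 against -0.02 over all probe sets. Clock changed by -0.29 ± 0.17, Arntl by 0.15 ± 0.29, Per2 by 0.08 ± 0.41 and Nr1d1 by -0.14 ± 0.42 (log2, SE). The other tested Clock probe sets had the opposite sign, at 0.33 ± 0.24 for 1435775_at, 0.19 ± 0.18 for 1418660_at and 0.03 ± 0.39 for 1439314_at, so Clock had no common direction. The 3 comparisons share their control samples.

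**Figure D3:**
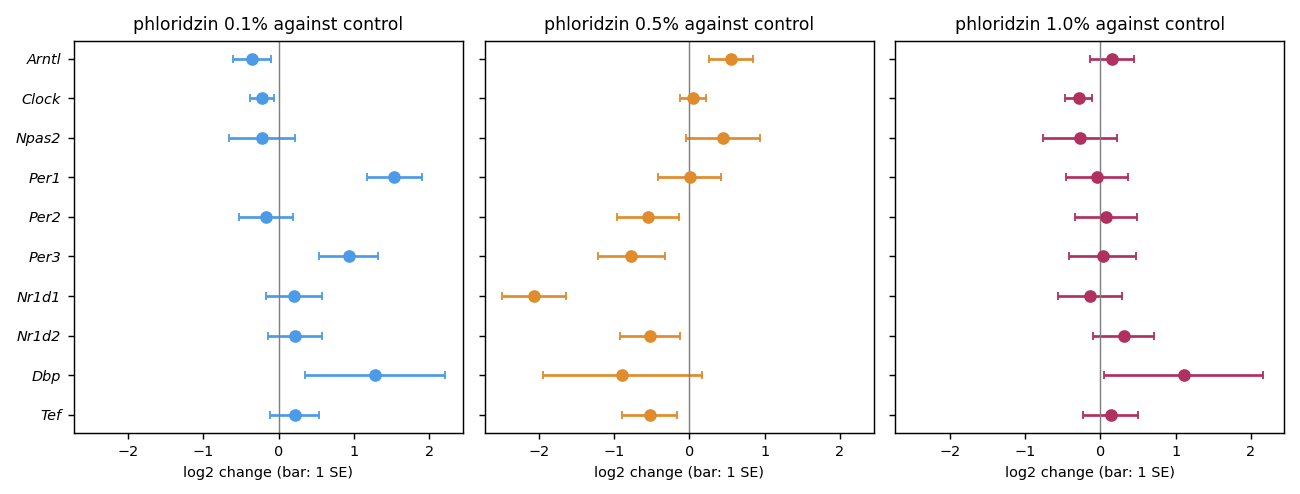
Log2 change of each clock gene against control (x axis) at 0.1%, 0.5% and 1.0% phloridzin, from limma; points are fitted changes and bars 1 SE. Per1 at 0.1% (1.54) and Nr1d1 at 0.5% (-2.06) lie farthest from 0 relative to their errors, and no gene passed the adjustment over all probe sets.

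Between doses the same genes stood out without a call. For 0.5% against 0.1%, 0 of 22 members passed, as did 0% of all probe sets, and 8 of 22 had an unadjusted p under 0.05, against 9.91%. Nr1d1 differed by -2.27 ± 0.44 (adjusted p = 0.221), Per3 by -1.70 ± 0.47 (0.352), Per1 by -1.53 ± 0.44 (0.365) and Arntl by 0.90 ± 0.31 (0.398), all log2 with SE and limma's adjusted p. For 1.0% against 0.1%, 0 members and 0% of all probe sets passed, and 4 of 22 members were under the unadjusted limit, against 12.7%. Per1 was lower at 1.0% by this measure, at -1.58 ± 0.44 with an adjusted p of 0.220. For 1.0% against 0.5%, 0 members and 0% of all probe sets passed, and 1 of 22, Nr1d1 at 1.93 ± 0.49, was under the unadjusted limit, against 4.34%.

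The F-test over the 4 diets called 0 of 22 members and 0.00877% of all probe sets. At an unadjusted p under 0.05 it held 4 of 22 members, those of Nr1d1 (p = 0.000719), Per1 (p = 0.00294) and both of the correlated Per3 probe sets, against 9.8%. A slope on the percent of phloridzin called 0 members and 0% of all probe sets. No member had an unadjusted p under 0.05 for the slope, where 8.63% of all probe sets did. Arntl had a slope of 0.42 ± 0.31 log2 units per 1% of diet.

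The order of the diets differed from gene to gene. By the brightest probe sets, the opposite-arm genes Per2, Per3, Nr1d1, Nr1d2, Dbp and Tef were lowest at 0.5%. Arntl, Clock and Npas2 were highest there, Clock by 0.05 over control. Except for Nr1d1, the low means came from the RNA of replicates 1, 2, 3 and 6 alone. Among other tested probe sets, Arntl 1457740_at and Clock 1418660_at were highest at 1.0%. Nr1d2 1416959_at was lowest at 0.1%, Per3 1458176_at at 1.0%, and Per2 1417603_at and Tef 1438033_at in control liver. The remaining ones had their extreme at 0.5% too. Per1 was lowest at 1.0% and highest at 0.1%. Arntl ran in the order 0.1%, control, 1.0% and 0.5%, with steps between neighbours of 0.35, 0.15 and 0.40 log2 units, each with an adjusted p of 0.673 or more in limma. For Nr1d1 the step between 0.5% and 1.0% was 1.93 and the other 2 steps were 0.14 and 0.20. No step between neighbouring diets passed the adjustment in any of the 10 genes.

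The SD among RNA samples of 1 diet was larger than the SD among arrays joined as 1 RNA for 8 of the 10 brightest probe sets. Dbp had a within-diet SD of 1.73 log2 units and an SD of 0.11 among joined arrays. The corresponding SDs were 0.64 and 0.11 for Nr1d2, 0.57 and 0.15 for Tef, 0.62 and 0.10 for Per2, 0.64 and 0.27 for Nr1d1, 0.66 and 0.33 for Per3, 0.72 and 0.43 for Npas2, and 0.41 and 0.22 for Arntl. The exceptions were Per1, at 0.56 within diets and 0.91 among joined arrays, and Clock, at 0.19 and 0.22. Among arrays taken as repeat hybridisations alone, the SD was 0.21 for Per1 and 0.13 for Clock, below their SD within diets. The median within-diet SD over all tested probe sets was 0.285, and that of Dbp was the highest of them. By this SD Npas2 stood at percentile 98.2, Per3 at 97.1, Nr1d1 and Nr1d2 at 96.5, Per2 at 95.8, Tef at 93.5 and Per1 at 92.9, while Arntl stood at 76.0 and Clock at 23.9, and at 90.5 by its probe set 1439314_at. Over the 11 RNA samples Dbp spanned 5.93 log2 units, Nr1d1 3.79, Per3 3.03, Per1 2.43, Nr1d2 2.30, Npas2 2.27 and Tef 2.00, where 4.09% of all tested probe sets spanned more than 2.

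**Figure D4:**
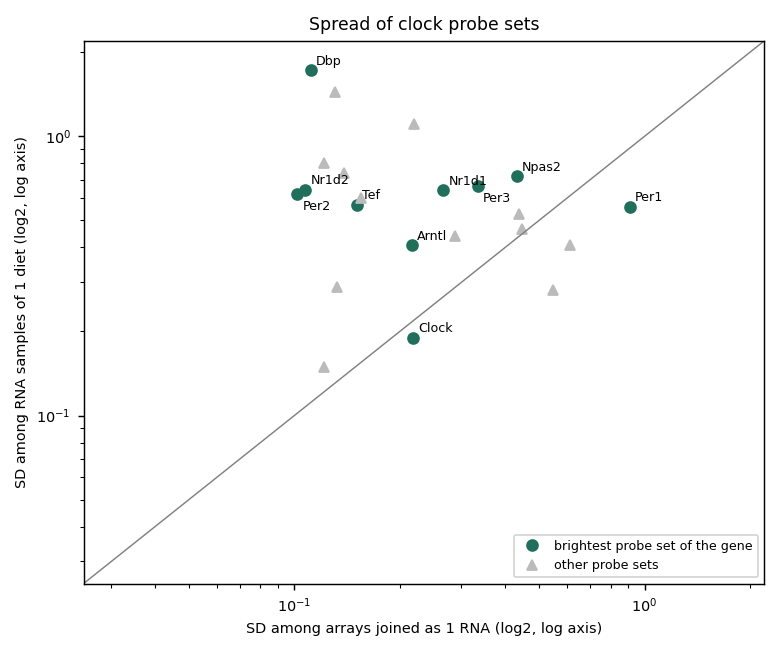
SD among RNA samples of 1 diet (y axis) against SD among arrays joined as 1 RNA (x axis), both in log2 units on log axes, for the 22 tested clock probe sets; the line marks equality. The brightest probe sets of 8 genes lie above the line, Dbp farthest up at 1.73 against 0.11, and those of Per1 (0.56 against 0.91) and Clock (0.19 against 0.22) below it.

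The opposite-arm relation was described over the 11 RNA samples. Arntl and Per2 had r = -0.67 (permutation p = 0.027, Benjamini-Hochberg 0.100 over 9 pairs) and rho = -0.58 (permutation p = 0.0665, Benjamini-Hochberg 0.313). The r of Arntl was -0.59 with Nr1d2, -0.58 with Tef, -0.57 with Per3 and with Dbp, -0.49 with Nr1d1 and -0.45 with Per1. Npas2, of the same arm as Arntl, had r = 0.57, and Clock had r = 0.17. None of the 9 pairs passed the adjustment in either form. Without the 2 RNA samples farthest from the median of Arntl, replicates 2 and 4 at 0.1%, the r with Per2 was -0.68 (permutation p = 0.0441, n = 9). Within the diets, with each diet's mean subtracted, Arntl and Per2 had r = -0.79 (permutation p = 0.0039, Benjamini-Hochberg 0.035) and rho = -0.87 (Benjamini-Hochberg 0.0084). An exact permutation of Arntl within the diets (576 orders), added after seeing the data because centring leaves fewer free values, gave Benjamini-Hochberg values of 0.109 for this r and 0.0625 for this rho, so neither passed. Leaving out each of the 11 RNA samples in turn, the centred r lay between -0.89 and -0.63 and passed the free permutation in 5 of 11 omissions. It failed without control replicates 1 and 3, control replicate 6, 0.1% replicate 2 or 5, or either RNA of 1.0%. With Nr1d2 the diet-centred values were r = -0.53 (Benjamini-Hochberg 0.203, exact permutation within diets) and rho = -0.75 (0.176 by the same test, 0.0401 by the free permutation), and with Nr1d1 r was 0.06. Without the RNA of 0.5% replicates 1, 2, 3 and 6, the uncentred r of Arntl was -0.54 with Per2, -0.37 with Dbp and -0.18 with Nr1d1. With the RNA of 2 labels added (n = 12), 6 of the 9 pairs had a Benjamini-Hochberg value of 0.0475: Npas2, Per2, Per3, Nr1d2, Dbp and Tef.

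**Figure D5:**
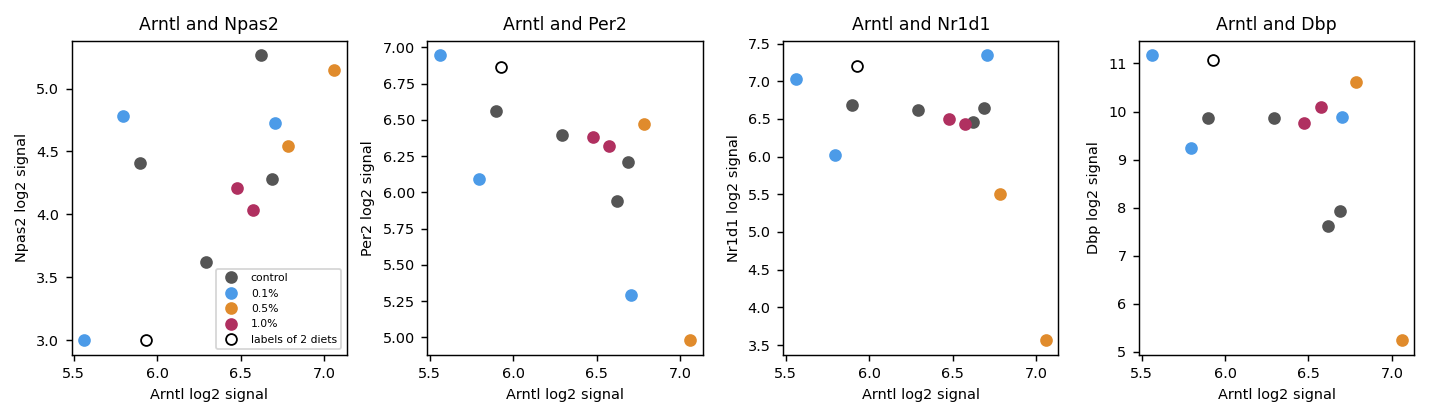
Log2 signal of Npas2, Per2, Nr1d1 and Dbp (y axes) against that of Arntl (x axes), 1 point for each RNA sample, coloured by diet. The open circle is the RNA with labels of 2 diets, which is left out of the r given here. The r over the 11 filled points is 0.57 for Npas2, -0.67 for Per2, -0.49 for Nr1d1 and -0.57 for Dbp.

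Taken pair by pair over the brightest probe sets, without subtraction of diet means, the 2 arms kept opposite signs. All 21 pairs of Arntl, Clock or Npas2 with an opposite-arm gene had a negative r, with a median of -0.51 and a range of -0.73 to -0.10. Within the opposite arm 20 of 21 pairs were positive, with a median of 0.74, and the exception was Per1 with Per2 at -0.21. Nr1d2, Dbp and Tef moved most closely, with r of 0.96 between Nr1d2 and Dbp and 0.97 for the other 2 pairs. Without the RNA of 0.5% replicates 1, 2, 3 and 6, 21 of 21 pairs across the arms stayed negative (median -0.40) and 17 of 21 within the opposite arm positive (median 0.44). With diet means subtracted, Arntl had r = 0.06 with Nr1d1. Its r with the other opposite-arm genes was then negative, from -0.79 with Per2 to -0.02 with Per1. The pairs share the same RNA samples and arrays, so the counts of signs are a description.

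Other probe sets of the same genes followed the brightest ones to unequal degrees. Besides Dbp and Per3 1441445_at, r over the 11 RNA samples was 0.84 and 0.48 for the other tested Per3 probe sets and 0.63 for the second of Nr1d2. It was 0.50 for the second of Arntl, 0.45 and 0.40 for those of Per2, 0.45 for that of Tef, and 0.67, 0.27 and 0.22 for those of Clock. The second Nr1d2 probe set, 1416959_at, read 3.47, 3.63, 3.49 and 3.53 on 0.5% arrays 1, 2, 3 and 6, and 5.11 and 4.98 on arrays 4 and 5. The second Arntl probe set, 1457740_at, changed by -0.17 ± 0.34 at 0.5% (log2, SE), where the brightest one changed by 0.55 ± 0.29. The 4 probe sets that failed the filter were Npas2 1421036_at, Per3 1460662_at, Per3 1421086_at and Tef 1450184_s_at, which stayed between the floor and 4.28 on all 24 arrays.

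The genes most like Dbp over the 11 RNA samples, among 1368 other genes with an SD of at least 0.5 log2 units, were Gadd45a, a growth-arrest gene (r = 0.94), the coactivator gene Ppargc1b (0.92), the uridine phosphorylase gene Upp2 (0.91), the deubiquitinase gene Usp2 (0.83) and Bmf (0.82). Lowest were Dnmt3b, a DNA methyltransferase gene (r = -0.92), the choline kinase gene Chka (-0.88), Lonrf3 (-0.81), Cd37 (-0.77) and Lcn2 (-0.73). The r of Lcn2 was -0.02 without the RNA of 0.5% replicates 1, 2, 3 and 6, while that of Chka was -0.92 and that of Upp2 0.90. For Arntl the highest were Camk2n2 (0.85), Catsperd (0.85), Zbtb10 (0.82), the pyruvate dehydrogenase kinase gene Pdk4 (0.80) and Dcc (0.79). The lowest for Arntl were Prss8 (-0.84), Gm20346 (-0.80), the cyclin gene Ccne2 (-0.77), Pak3 (-0.76) and Crb1 (-0.74). Of these 10 genes, Pdk4 ran from 4.35 to 6.08 over the RNA samples, and the others had highest values of 4.50 to 4.90 and lowest values of 3.00 to 3.29.

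None of the further genes of the loop was called. Of 22 listed, 20 were on the array and 18 were tested, and 11 were higher and 7 lower at 0.1%, 7 and 11 at 0.5%, and 10 and 8 at 1.0%. Their median changes were 0.04, -0.09 and 0.02 at the 3 doses, against 0.00, 0.01 and -0.02 over 13118 genes. At an unadjusted p under 0.05 the list held 0 genes at 0.1%, 0 at 0.5% and 1 at 1.0%, where 8.34%, 5.12% and 6.27% of all genes fell under this limit at the 3 doses. In order of F-test p the leading genes were Nono, Csnk1d, Csnk2a1, Rora and Bhlhe41, and Nono, which encodes a PER-binding protein, changed by 0.38 ± 0.14 at 1.0% (adjusted p = 0.705 in limma). Csnk1d, the gene of a PER kinase, changed by 0.26 ± 0.15 at 0.1%, and Rora, an activator of Arntl, by -0.32 ± 0.23. Nfil3, a repressor at D-box elements, stood at 8.10 in the 0.5% RNA with low Dbp (replicates 1, 2, 3 and 6) and at 6.71 in the other, against 7.06 to 7.99 in control RNA. Bhlhe40, an E-box repressor, was at 7.82 and 9.10 in the same 2 samples, against 8.23 to 9.42 in control RNA. Nfil3 and Bhlhe40 were named after their values were seen.

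Of 16 clock-driven output genes of liver, 13 were on the array and tested, and 0 were called. They divided into 6 higher and 7 lower at 0.1%, 8 and 5 at 0.5%, and 4 and 9 at 1.0%, with median changes of -0.16, 0.03 and -0.10. This list held, at an unadjusted p under 0.05, 3 higher and 3 lower of 13 at 0.1%, against 8.34% of all genes, 1 and 2 at 0.5%, against 5.12%, and 0 and 1 at 1.0%, against 6.27%. The leading genes by F-test p were Nr0b2, Cyp7a1, Pnpla2, Elovl3 and Alas1. Nr0b2, a repressor of bile acid synthesis, changed by -0.90 ± 0.21 at 0.5% and -0.90 ± 0.21 at 1.0%. Cyp7a1, the rate-limiting enzyme of that pathway, changed by 2.10 ± 0.49 at 0.5% (log2, SE), and the lowest adjusted p of the list at this dose was 0.426 in limma. Unlike Dbp, Cyp7a1 was above control in both 0.5% RNA samples, at 8.07 and 7.52 against 5.41 to 6.06. Usp2 and Upp2 were named above for their high r to Dbp over the same RNA samples, so their following its split is not a separate result. Usp2 was at 4.13 in the 0.5% RNA with low Dbp and at 6.45 in the other, and Upp2 at 7.48 and 9.92.

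Of 10 genes that carry glucocorticoid and immediate signals to the Per genes, all were tested and 1 was called. Dusp1, a stress-induced phosphatase, fell at 0.1% by 1.36 on the log2 scale (SE 0.16, adjusted p = 0.016 in limma), to 9.04 at 0.1% against 10.40 in control liver. The call was lost in 9 of 25 other settings. Limma's adjusted p was highest, at 0.403, with a floor of 32 in place of 8. It was 0.309 with the RNA of 2 labels added under both diets and 0.19 with no filter. The call was also lost in eBayes without the trend and with no scaling between arrays (0.0701). The remaining losses came on leaving out the RNA of control replicates 1 and 3 (0.0529), of control replicate 5 (0.0513) or 6 (0.0515), or of 0.1% replicate 4 (0.0671). The change of Dusp1 lay between -1.54 and -1.23 in all 25 settings. Of this list 3 genes were higher and 7 lower at 0.1%, 5 and 5 at 0.5%, and 3 and 7 at 1.0%, with median changes of -0.22, 0.01 and -0.11. It held, at an unadjusted p under 0.05, 1 higher and 3 lower of 10 at 0.1%, against 8.34% of all genes, 0 and 4 at 0.5%, against 5.12%, and 0 and 2 at 1.0%, against 6.27%. Tsc22d3, a glucocorticoid target, changed by -0.51 ± 0.13 at 0.1% and -0.89 ± 0.15 at 0.5% (adjusted p at least 0.223). Per1, which such signals can induce, was higher at 0.1% while Dusp1 and Tsc22d3 were lower, and the relation between them was not tested.

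Of 9 temperature-linked genes that follow the clock in liver, 8 were tested and 0 were called. At 1.0% the heat shock genes Hspa1b and Hspa1a changed by -1.94 ± 0.54 and -1.91 ± 0.58 and Hsp90aa1 by 1.05 ± 0.31 (log2, SE; adjusted p at least 0.678 in limma). Cirbp, a cold-inducible RNA-binding protein gene, changed by 0.52 ± 0.28 at 1.0%. At an unadjusted p under 0.05 the list held 0 genes at 0.1%, 0 at 0.5%, and 1 higher and 3 lower of 8 at 1.0%, against 6.27% of all genes. Its median changes were 0.06, -0.11 and 0.22 at the 3 doses.

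Markers of other liver cells and of RNA quality were set beside the split at 0.5%. In RNA samples of 0.5%, the mean of 5 Kupffer cell markers ran from 7.61 to 7.81 and that of 5 endothelial markers from 7.25 to 7.42, against 7.54 to 7.69 and 7.26 to 7.42 in control RNA. The mean of 4 neutrophil markers ran from 4.79 to 5.52 at 0.5% and from 4.26 to 4.91 in control RNA, and that of 3 cholangiocyte markers from 4.25 to 4.32 at 0.5% and from 3.30 to 3.76 in control RNA. Krt7, a further cholangiocyte marker that failed the filter, had a median at the floor. Their part in the clock values was not tested. The mean of 5 stellate cell markers ran from 6.65 to 6.99 at 0.5% and from 6.60 to 7.05 in control RNA. T cell markers (1 tested of 4) ran from 4.39 to 4.65 and from 3.76 to 5.07, and B cell markers (2 tested of 4) from 3.63 to 3.91 and from 3.61 to 4.35, at 0.5% and in control RNA. The log2 difference between the 3′ and 5′ control probe sets of Gapdh was -0.18 in both 0.5% RNA samples and -0.37 to -0.28 in control RNA. That of actin was 1.49 in the 0.5% RNA with low Dbp and 1.78 in the other, against 1.31 to 1.54 in control RNA. Replicate 4 at 0.1% stood apart at 2.32. No member was called at 0.1% with or without its RNA, so the omission cannot show whether RNA quality mattered.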

How the data were processed

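The members and gene lists used here were chosen with earlier results of these data known. The deposited table gives, for every array, a linear intensity of each probe set. Per the labels' protocols, total liver RNA of each mouse was reverse-transcribed with a T7-oligo(dT) primer and transcribed into biotin-labelled cRNA. How the authors summarised, background-corrected or scaled the intensity values is not stated in those protocols. Detection calls and scan dates were not used here. By the platform annotation 34945 probe sets had 1 gene, 932 had several and 9160 had none. All 10 members matched RefSeq (GRCm38.p6) by Entrez identifier.

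Signals were quantile-normalized in limma 3.58.1 under R 4.3.3, floored at 8 and log2-transformed. The filter dropped 40% of probe sets, those with the lowest means, and 6.36% of the tested values lay at the floor. Arrays were averaged as 1 RNA where their log2 differences had an SD under 0.15 over 1461 well-measured genes (mean above 9), and an SD under 0.08 was taken as a repeat hybridisation. These limits were set with the data in view. The labels do not say which of the joined RNA samples are separate animals, and the p-values reflect only the spread among them, which may be technical. One lmFit and eBayes fit (trend = TRUE) held the 4 diets, with 7 residual degrees of freedom. Benjamini-Hochberg adjustment of the two-sided p-values ran over all 22794 tested probe sets, and a member was called at an adjusted p under 0.05. Correlations had two-sided permutation p-values from 100000 resamples (scipy 1.17.1), adjusted over 9 pairs, and the diet-centred ones an exact permutation within diets as well. The fit was tested on simulated data.

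Each gene is led by its brightest probe set. Up to 5 genes of each list were named in order of F-test p, besides the 5 genes with the highest and the 5 with the lowest r to Arntl and to Dbp. Deviations of arrays with the same replicate number correlated between -0.18 and 0.42, and 4 of 24 arrays correlated best with their own number, so the numbers were not taken to pair the samples. Other scalings, floors, filters, variance models, ways of joining arrays, a replicate block and leaving out each RNA sample were tried.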

Additional observations from a re-analysis of the deposited data

Results flagged for a closer look

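One RNA was found on 3 arrays labelled 0.1% (replicates 1, 3 and 6) and on 1 labelled 1.0% (replicate 1). It lay outside every comparison of the main fit, and 7 opposite-arm clock genes were above the whole control range in it. Dbp was at 11.07, against 7.63 to 9.87 in the 4 control RNA samples. Per1 was at 5.71, against 3.00 to 4.23, and Per3 at 6.94, against 4.66 to 5.48. Nr1d1 was at 7.20, against 6.46 to 6.69, and Per2 at 6.86, against 5.94 to 6.56. Tef was at 8.75, against 7.84 to 8.49, and Nr1d2 at 9.998, against 9.29 to 9.94, all as mean log2 signals of its 4 arrays. Arntl, of the other arm, was at 5.93, within the control range of 5.90 to 6.69. This RNA differed from control in many genes: its log2 differences from control arrays had an SD of 0.351 to 0.500 over the well-measured genes. Between control arrays that SD was at most 0.275. Replicate 5 at 0.1%, which was in the fit, differed from control arrays to a like extent, at 0.329 to 0.489. The share of all probe sets above the control range in this RNA is not given here. The SD of the log2 difference between arrays of this RNA and other arrays was lowest with 0.1% replicate 5, at 0.217 to 0.220. It was 0.368 to 0.430 with 0.1% replicates 2 and 4, and 0.511 to 0.527 with 1.0% replicates 2 to 6. Which diet this RNA came from was not tested. In the control diet, the one group with enough RNA samples to look for a sample far from the others, none of the 10 genes had one.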

How the results depend on the processing

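With the arrays joined as described, 0 members were called in each comparison and 0 of 9 correlations with Arntl passed. Taking all 24 arrays as labelled gave 5 calls at 0.1%, 3 at 0.5%, 17 in the F-test, 29 over the 3 differences between doses and 8 correlations; this setting both counts arrays of 1 RNA as separate samples and brings in the 4 arrays of the RNA with labels of 2 diets. The same arrays with a replicate block gave 4 calls at 0.1%, 3 at 0.5%, 1 at 1.0%, 15 in the F-test and 27 between doses. The share of all tested probe sets called in each of these other settings is not given here. The counts of called members are therefore not read as particular to the clock genes. Joining repeat hybridisations only gave 1 call at 0.5%, 1 in the F-test and 1 between doses, all of Nr1d1, and 5 correlations. Adding the RNA of 2 labels under both diets gave 7 correlations, and adding it once gave 6. Leaving out each RNA sample gave 0 to 1 calls at 0.5%, 0 to 1 in the F-test and 0 to 3 between doses, the upper values without the RNA of 0.5% replicates 4 and 5, and 0 to 1 correlations, the upper value without 0.1% replicate 5. Over the same omissions the 0.5% changes ran from -1.30 to 0.19 for Per2, -1.64 to 0.10 for Per3, -1.56 to 0.52 for Nr1d2, -1.45 to 0.39 for Tef and -3.58 to 1.79 for Dbp, positive where the RNA of 0.5% replicates 1, 2, 3 and 6 was left out. The r of Arntl and Clock ran from -0.26 to 0.32, and that of Arntl and Per1 was 0.019 with a floor of 32. The other scalings, the floors, filters and the variance model gave 0 calls. Joining arrays at an SD under 0.17, which merges control replicates 1 to 4 and was added after seeing the data, gave 0 calls. Of single-gene values, 725 of 747 alternative log2 changes were counted as the same. A change larger than its SE in the main fit had to keep its direction and stay without a call. A smaller one had only to move by less than the SD within diets, whatever its sign or call. By direction and by passing or not, 198 of 234 alternative correlations were the same, with a change of sign allowed for the small diet-centred r of Arntl and Nr1d1. Using 1 probe set for each gene leaves the correlations as they are. The causes of these differences between settings were not tested, and 2 RNA samples at 0.5% and at 1.0% limit every comparison.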

Other observations

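Npas2 stood at the floor of 3.00 in the RNA of 0.1% replicate 2 and in the RNA of 2 labels, at 5.27 in control replicate 6 and at 5.15 in the RNA of 0.5% replicates 1, 2, 3 and 6.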
